A study of Mus musculus with 4 samples.

Results

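The Dppa genes (developmental pluripotency associated) are 5 genes, Dppa1, Dppa2, Dppa3, Dppa4 and Dppa5a, that were picked by symbol out of the 28250 genes listed for RNA-seq of TBV2 cells. They were chosen with the MS-275 comparison in view, because Dppa3 was higher with MS-275 while other pluripotency genes were lower. Their differences between the groups are therefore given as a description, without a test.

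The family shares a name, and its members are not all alike in sequence. Dppa2 and Dppa4 are neighbouring genes whose proteins carry a SAP DNA-binding domain, work as a pair in the nucleus and act upstream of Dux and the 2-cell-like genes. Dppa3 (also called Stella or PGC7) is a maternal factor of the oocyte and early embryo that shields DNA methylation in the zygote and binds Uhrf1, the partner of the maintenance methyltransferase Dnmt1. Dppa5a (also called Esg1) encodes an RNA-binding protein with a KH domain, and it lies beside Ooep, an oocyte gene of the same class.

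TBV2 is a feeder-dependent line of mouse embryonic stem cells (ESC) kept with LIF, the cytokine that holds ESC undifferentiated. MS-275 is an inhibitor of class I histone deacetylases. For 24 h the cells of the Solvent group (2 libraries) received the vehicle alone and those of the MS-275 group (2 libraries) received 5 µM MS-275, and nothing states that the 2 libraries of a group came from separate cultures, so p-values measure only the spread between these libraries. The ESC markers Pou5f1, Sox2, Nanog, Zfp42, Fbxo15 and Utf1 had a signal in all 4 libraries, from 0.120 for Utf1 in MS-275 replicate 2 to 3.35 for Sox2 in Solvent replicate 2.

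The measure is the authors' normalized expression value, here called signal. Alignments of 35 bases were deposited beside it, and they came in 2 kinds. Those deposited with replicate 1 held 23467935 (Solvent) and 20008841 (MS-275) alignments, of which 53.2% and 54.4% repeated a position already taken, and those deposited with replicate 2 held 9785619 and 10915650 with no repeats. Scaled per alignment and exon length, the repeat-keeping alignments lay within 2-fold of the typical ratio to the signal of replicate 2 for 91.4% (Solvent) and 89.4% (MS-275) of the genes compared, against 78.3% and 75.0% with the signal of replicate 1. The repeat-free alignments showed the opposite, with 93.6% for the signal of replicate 1 in both groups against 75.5% and 70.3% for replicate 2. The alignments may thus have been exchanged between the replicates of a group, which could not be settled, and they are called repeat-keeping and repeat-free below. A ratio without the scaling by exon length was not taken, so that the signal is a level per length is an assumption here.

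On mm9, GENCODE M1 places Dppa1 at chr11:46421274-46442763 on the minus strand, with 7 exons of 1575 bases in all. Dppa4 lies at chr16:48283848-48294405 (7 exons, 1534 bases) and Dppa2 at chr16:48310590-48319836 (7 exons, 1948 bases), both on the plus strand. Dppa3 occupies chr6:122576428-122580290 on the plus strand (5 merged exons, 892 bases), and Dppa5a occupies chr9:78214859-78215984 on the minus strand (3 exons, 619 bases). Parts of these genes recur elsewhere in the genome, so that a read of 35 bases often cannot be placed. Windows of 35 bases with their midpoint in an exon were compared with mm9. Of these, 82.2% occurred at no other place for Dppa1, 63.6% for Dppa3, 45.5% for Dppa4, 44.1% for Dppa2 and 27.8% for Dppa5a. Windows more than 1 mismatch away from any other place made up 65.4% of Dppa1, 39.7% of Dppa3, 26.6% of Dppa2, 25.2% of Dppa4 and 16.6% of Dppa5a. The Dppa genes were therefore measured on part of their exons, and Dppa5a on the smallest part.

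**Figure D1:**
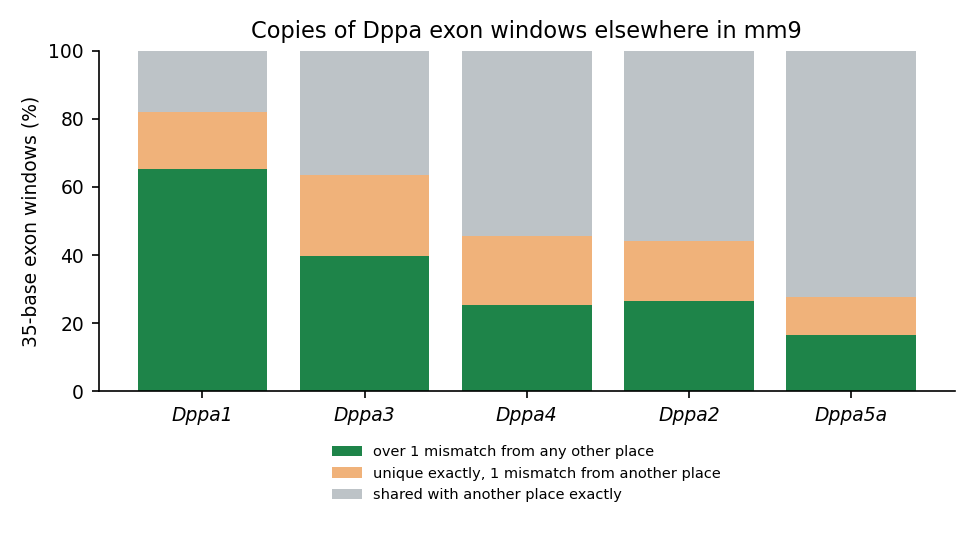
Share (y axis, %) of the 35-base windows with their midpoint in the exons of each Dppa gene, by class. The classes are windows more than 1 mismatch from any other place in mm9, windows unique but 1 mismatch from another place, and windows that occur elsewhere exactly. The share that occurs elsewhere exactly is smallest for Dppa1 and largest for Dppa5a.

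The following pairs are examples of windows 1 mismatch from a copy elsewhere, and such copies are why copies are set beside the values. The comparison allowed at most 1 mismatch, so the difference of 1 base follows from how the pairs were picked. It does not measure how alike a Dppa gene and its copy are, and only 1 copy is shown for each gene. Each pair gives a window in a coding exon (mm9, 5′ to 3′ on the strand of the gene) and the matching window of a copy, and the capital marks the base at which they differ. The Dppa5a window is chr9:78215860-78215894 on the minus strand in exon 1, and its copy lies in Dppa5b at chr9:78093369-78093403 on the plus strand. The Dppa4 window is chr16:48289165-48289199 on the plus strand in exon 3, and its copy lies in the pseudogene Gm14058 at chr2:122040901-122040935 on the minus strand. The Dppa3 window is chr6:122578737-122578771 on the plus strand in exon 3, and its copy lies in Cacna1d at chr14:31211407-31211441 on the plus strand.
Dppa5a: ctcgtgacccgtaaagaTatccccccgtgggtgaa
Dppa5b copy: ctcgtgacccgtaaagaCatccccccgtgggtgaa
Dppa4: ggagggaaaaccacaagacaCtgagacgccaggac
Gm14058 copy: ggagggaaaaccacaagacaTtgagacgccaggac
Dppa3: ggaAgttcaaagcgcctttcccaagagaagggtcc
Cacna1d copy: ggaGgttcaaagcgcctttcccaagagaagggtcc

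At the Dppa5a window 472 Solvent and 422 MS-275 alignments were placed in the repeat-keeping libraries and 1 and 1 in the repeat-free libraries. At the Dppa4 window the repeat-keeping libraries held 20 (Solvent) and 29 (MS-275) alignments, and at the Dppa3 window 0 and 5, while the repeat-free libraries held 0 at both. The copies held 0 alignments at these windows in all 4 libraries. Whether a copy window occurs at a further place is not given here, so this 0 does not show that the copies are silent. For Dppa5a, a second place besides Dppa5b also had 480 matching windows. Windows of the Dppa genes that occur elsewhere exactly held 0 alignments in the repeat-keeping libraries.

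The Dppa genes spanned the whole range of expression. Dppa1 was listed at 0 in all 4 libraries and no alignment lay on its exons, which allows up to 3 alignments per library, or 0.128 to 0.307 per 1000000 alignments, for counting error only. Of the other 4 genes, which passed the filter on low values, 1 (Dppa3) had both MS-275 values above both Solvent values, 0 had both below, and 3 overlapped between the groups, where 32.3% of the 20336 genes tested had both values above and 12% both below. Since the genes were chosen on this contrast, nothing is read from these shares.

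Dppa3 signal was 0.0162 and 0.0234 in Solvent replicates 1 and 2, and 0.0730 and 0.413 in MS-275 replicates 1 and 2. The groups did not overlap, and MS-275 replicate 2 stood far above the rest, so the size of the difference varied with the replicate while its direction did not. The signal was 4.50-fold higher with MS-275 within replicate 1 and 17.7-fold higher within replicate 2. On the scale log2(signal + 0.005), which understates changes of low genes, the difference was 2.88, or 1.88 within replicate 1 and 3.88 within replicate 2. Of the genes tested, 0.467% had a larger difference on this scale. At least 2-fold in both replicates, the mark that Dppa3 passed, was reached upward by 11.5% of all genes listed and downward by 2.04%. Among all genes listed, Dppa3 moved from above 54.1% and 61.5% of the genes in the Solvent libraries to above 66.7% and 92.4% in the MS-275 libraries.

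Dppa4 signal was 0.170 and 0.233 in the Solvent libraries, and 0.140 and 0.189 in the MS-275 libraries, in the order of the replicates. The groups overlapped, and within each replicate the MS-275 value was the lower one, by -17.6% and -18.9%. The difference on the log2 scale was -0.28, with -0.27 and -0.30 within the replicates. Dppa2, the partner of Dppa4, had a signal of 0.135 and 0.138 with solvent, and 0.123 and 0.145 with MS-275. Its values overlapped, with a difference of -0.03 on the log2 scale that was -0.13 within replicate 1 and 0.07 within replicate 2. The pair thus lay close together in every library, and neither difference exceeded the SD between replicates on this scale (0.31 for Dppa4, 0.12 for Dppa2). That SD holds the offset between the replicates, so it does not measure the spread of the differences within a replicate. Those differences of Dppa4 were alike. The median of all genes tested was 0.20 on this scale, and median-ratio scaling took it to -0.01. Under that scaling the difference was -0.56 for Dppa4, -0.31 for Dppa2, -0.51 for Dppa5a and 2.62 for Dppa3, so no direction changed. The SDs above were taken on the unscaled signal, so these values are not set against them.

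Dppa5a signal was 0.293 and 5.51 in Solvent replicates 1 and 2, and 0.293 and 4.05 in MS-275 replicates 1 and 2. Here the replicate set the level: replicate 2 was 18.8-fold above replicate 1 with solvent and 13.8-fold above it with MS-275. Over 12270 genes above 0.01 in all libraries the median of that ratio was 0.782 and 0.827, and 0.302% and 0.864% of them reached the ratio of Dppa5a. Between the groups the log2 difference was -0.22, with -0.00 within replicate 1 and -0.44 within replicate 2. The pooled SD between replicates was 2.82, but it holds the offset between the replicates and does not measure the spread of the differences within a replicate. The order of the signal, assumed to be a level per length, was Dppa5a, Dppa4, Dppa2, Dppa3 and Dppa1 in 3 of the 4 libraries. It takes no account of the share of unique windows, which differs between these genes. In MS-275 replicate 2, Dppa3 stood second, above Dppa4 and Dppa2. The values of Dppa4 and Dppa2 did not overlap with solvent but did with MS-275, so these neighbours in the order did not differ beyond their spread there. Dppa3 lay below both with solvent, and its values overlapped theirs with MS-275. The ranges of Dppa5a and Dppa4 did not overlap in either group, and the lower Dppa5a values lay near those of Dppa4.

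**Figure D2:**
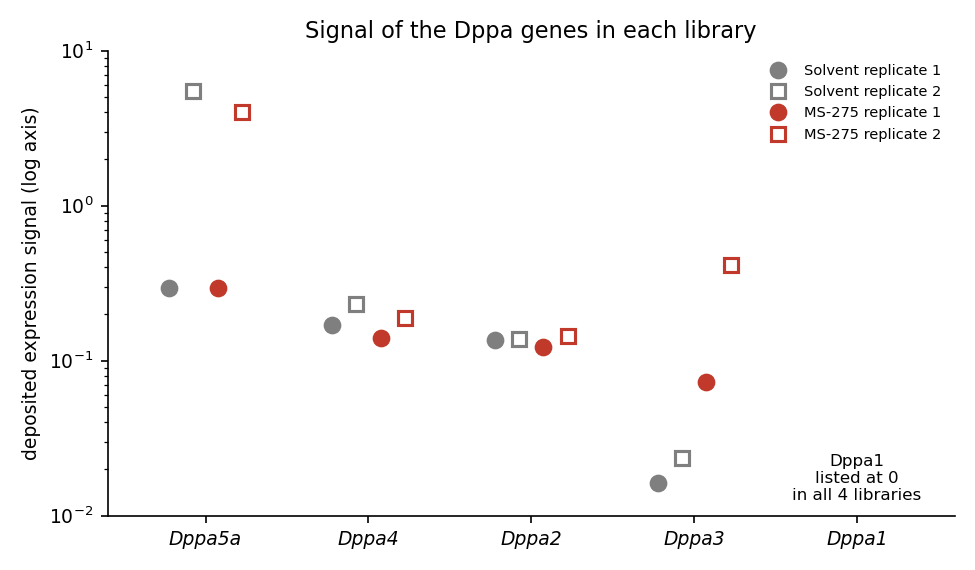
Deposited expression signal of each Dppa gene (y axis, log scale) in the 2 Solvent libraries (grey) and the 2 MS-275 libraries (red), with filled points for replicate 1 and open points for replicate 2. Dppa3 is the gene whose red points both lie above its grey points, and the open points of Dppa5a lie above 4 while the filled ones lie at 0.293.

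The deposited alignments gave a second look at the same libraries. On Dppa3 exons the repeat-keeping libraries held 46 alignments with solvent and 652 with MS-275, and the repeat-free libraries held 13 and 64. Relative to the alignments of its library Dppa3 was thus 16.6-fold and 4.41-fold higher with MS-275. Counted once per position, Dppa3 alignments lay on 31 (Solvent) and 146 (MS-275) positions in the repeat-keeping libraries, a 5.67-fold difference relative to all positions of a library. The gap between the libraries was therefore much smaller when repeats were counted once. Repeats per position also differed between the groups, with 1.48 alignments per occupied Dppa3 position with solvent and 4.47 with MS-275. On the Dppa3 windows more than 1 mismatch from any other place, 27 alignments became 424 in the repeat-keeping libraries (18.4-fold relative to the library) and 5 became 34 in the repeat-free ones (6.10-fold).

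Dppa4 and Dppa2 held between 246 and 892 exon alignments per library, and their groups lay closer together than those of Dppa3. Dppa4 had 892 and 620 alignments in the repeat-keeping libraries and 274 and 248 in the repeat-free ones, 0.815-fold and 0.811-fold relative to the library with MS-275. By distinct positions the repeat-keeping ratio of Dppa4 was 0.981. On Dppa4 windows more than 1 mismatch from other places the ratios were 0.682 and 0.660, lower than over all its exons. Dppa2 had 606 and 537 alignments in the repeat-keeping libraries and 246 and 254 in the repeat-free ones, 1.04-fold and 0.926-fold relative to the library.

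Dppa5a showed the strongest dependence on repeats. Its exons held 8297 (Solvent) and 5253 (MS-275) alignments in the repeat-keeping libraries, but 191 and 209 in the repeat-free ones. In the repeat-keeping libraries these lay on 225 and 208 positions, so that an occupied position carried 36.9 and 25.3 alignments on average and up to 879. Between 53.8% and 65.4% of the positions that a read could take on unique Dppa5a windows were occupied across the 4 libraries, against at most 14.3% for Dppa2. With so many positions already taken, distinct positions have little room to show a difference for Dppa5a, and their ratio was 1.11 and 0.981. Dppa5a levels are therefore compared here within a replicate only. The plot of ratios by measure sets the Dppa genes side by side.

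**Figure D3:**
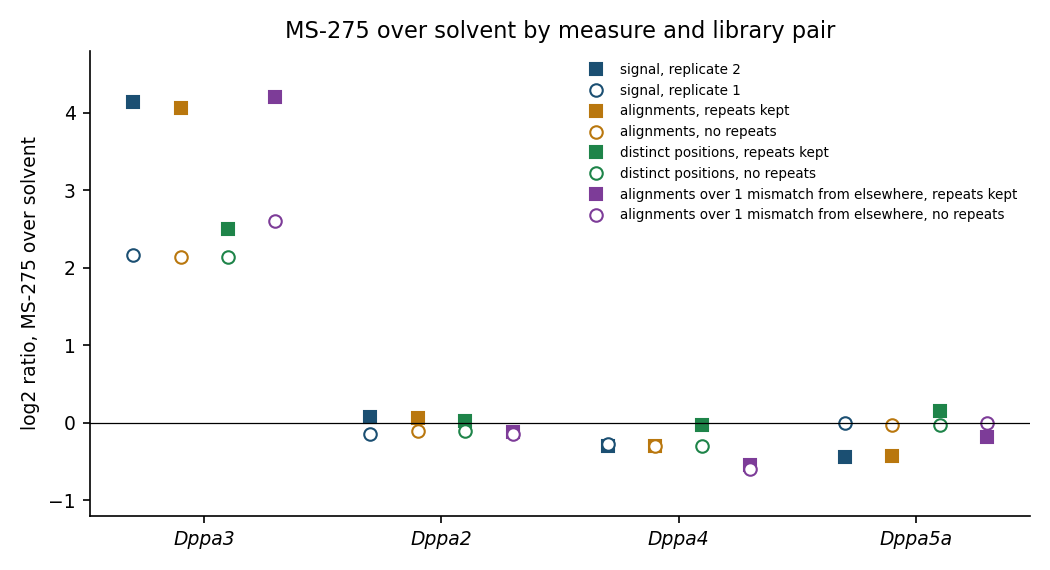
log2 ratio of MS-275 over Solvent (y axis) for Dppa3, Dppa2, Dppa4 and Dppa5a, from the signal within each replicate, from exon alignments and from distinct positions, each relative to the library total, and from alignments on windows more than 1 mismatch from any other place. Filled squares are replicate 2 of the signal and the repeat-keeping alignments, open circles are replicate 1 of the signal and the repeat-free alignments; all Dppa3 points lie above 2 and the points of the other genes lie between -0.60 and 0.15.

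Placed reads were spread unevenly over the exons. Exon 1 carried 42.2% to 60.3% of the Dppa3 exon alignments and the last exon 28.1% to 38.5%, in all 4 libraries. Dppa2 had 75.6% to 84.2% of its alignments on exon 7, the last one, and Dppa4 57.1% to 60.1% on its own exon 7. Dppa5a had 0 alignments on exon 3 in every library, with 55.4% to 63.5% on exon 1 and the rest on exon 2. Windows that occur elsewhere exactly were rarely given alignments, and they made up 447 of the 619 windows of Dppa5a. Their place by exon was not counted, so an exon with few alignments cannot be read as little transcribed, for any of these genes. Introns held the most alignments for Dppa4, with 995 (Solvent) and 669 (MS-275) in the repeat-keeping libraries and 465 and 319 in the repeat-free ones, more than on its exons in each library. Its introns span 9024 bases and its exons 1534, so per base the exons held more alignments in each library. Dppa3 introns held 14 and 4 alignments with solvent and 61 and 11 with MS-275, so the intron counts went the same way as those of the exons.

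Copies of the Dppa genes also took up reads. Dppa5a had 7 places in the genome with at least 100 matching windows, which together held 4614 (Solvent) and 2893 (MS-275) alignments in the repeat-keeping libraries and 115 and 119 in the repeat-free ones. In the repeat-keeping libraries most of them lay on the pseudogene Gm6083 at chr5:29864637-29865223, with 3605, 61, 2255 and 55 alignments in the order Solvent repeat-keeping, Solvent repeat-free, MS-275 repeat-keeping and MS-275 repeat-free. Dppa5b, a copy of Dppa5a on the same chromosome with 480 matching windows, had 0 in all 4. Since windows that occur elsewhere exactly were rarely given alignments, this 0 does not show that Dppa5b is silent. For Dppa3 the copy on the X chromosome at Gm6269 held 10, 6, 89 and 22 alignments in the same order, higher with MS-275 as Dppa3 itself was. The Gm14058 copy of Dppa4 held 246, 57, 159 and 69, and the Gm5501 copy, of nearly the same size, 198, 43, 251 and 43, so that the copies of Dppa4 went opposite ways in the repeat-keeping libraries. Whether such alignments come from the copies or from the Dppa genes was not tested.

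The start sites of the Dppa genes differed in CpG content. In the window from 250 bases before to 50 after the annotated start (mm9), Dppa5a had 12 CpG, Dppa3 6, Dppa2 5, Dppa4 4 and Dppa1 1, where the median of 22375 protein-coding genes was 11. The share of these genes with fewer CpG than the member was 50.1% for Dppa5a, 34.3% for Dppa3 and 4.88% for Dppa1. The gene listed at 0 had the fewest CpG and the gene with the highest signal the most, but the order between them differed. Dppa4 had fewer CpG than Dppa2 and Dppa3, and more signal than both with solvent.

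The genes around each Dppa gene did not move as a block. The 5 listed genes on each side of each member made 40 neighbours, of which 29 were tested. In limma without a block 0 of them passed at a Benjamini-Hochberg adjusted p of 0.05, while before adjustment 5 had a positive and 3 a negative difference at p under 0.05, and of all genes 0.00492% passed upward and 0% downward. With the replicate number as a block, 7 were higher and 4 lower, where 21% of all genes tested were called higher and 6.46% lower. Limma-voom on distinct positions called 3 of the neighbours higher and 3 lower without the block (15.2% and 4.61% of all genes), and 4 and 6 with it (28.6% and 14.2%). Many of the 29, among them all those beside Dppa1, had too few positions for that fit, so these counts rest on fewer genes. After quantile normalization with the block 5 and 7 of them passed (14.4% and 14.6% of all genes), and after median-ratio scaling with the block 6 and 6 (16.6% and 14.1%).

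Dppa3 sits in a stretch of pluripotency genes on chromosome 6, and its 2 nearest listed genes on one side went the opposite way. Gdf3, a TGF-beta family ligand 16.3 kb away, had a signal of 0.387 and 0.565 with solvent and of 0.0375 and 0.00782 with MS-275. That fall, -4.34 on the log2 scale (limma, adjusted p of 1.7e-06 with the block and 0.0581 without it), was the largest among the neighbours. Apobec1, a cytidine deaminase gene 24.0 kb away, fell from 0.217 and 0.135 to 0.0811 and 0.0567 (limma with the block, adjusted p of 0.000682). Foxj2, a forkhead gene 190 kb away on the other side, rose by 0.91 on the log2 scale (limma with the block, adjusted p of 0.0319). Between Dppa3 and Foxj2, Gm10224, the nearest listed gene on that side, had a log2 difference of -0.31, Nanog one of -0.23 and Slc2a3 one of -0.25, and none of these passed with or without the block. Adjusted p without the block ranged from 0.0581 to 0.549 among these called neighbours of Dppa3.

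Beside Dppa5a, Ooep lies 7.93 kb away. Ooep signal was 0.683 and 1.04 with solvent and 0.308 and 0.212 with MS-275, a fall of -1.70 on the log2 scale (limma, adjusted p of 0.000404 with the block and 0.117 without it). The 5 kb upstream of Dppa5a, on the side of Ooep, held 765 and 373 alignments with solvent and 75 and 56 with MS-275, where Dppa5a exons changed by far less. On the other side, Gsta2 (a glutathione transferase), Omt2b and Omt2a (oocyte maturation genes), rose with the block (limma adjusted p from 0.00162 to 0.00425). All of them were at or near 0 with solvent: Omt2b was listed at 0 in both Solvent libraries and at 0.00622 and 0.00544 with MS-275. Omt2b thus passed the filter on low values only through the MS-275 libraries. Its call, which counts among the neighbours called higher, is not read as a result. The transcript 4930542C12Rik, beyond Ooep, also rose by 1.05 (limma with the block, adjusted p of 0.015).

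Dppa2 and Dppa4 stand alone on chromosome 16. Pvrl3, a nectin gene and their nearest listed gene on one side, is 1812 kb from Dppa2, and it had a log2 difference of -0.05 (limma, adjusted p of 0.984 without and 0.894 with the block). Morc1, a germ cell gene of transposon silencing 112 kb away on the other side, went from 0.406 and 0.385 to 0.268 and 0.220 and passed with the block (adjusted p of 0.0334, against 0.449 without it in limma). Plcxd2, a phospholipase-like gene 2300 kb away, rose by 1.16 with the block (limma, adjusted p of 0.00721). Next to Dppa1, BC053393 and Gm4926 stayed under 0.0011 in all 4 libraries and were not tested, and of the 5 tested neighbours of Dppa1 0 passed with the block.

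**Figure D4:**
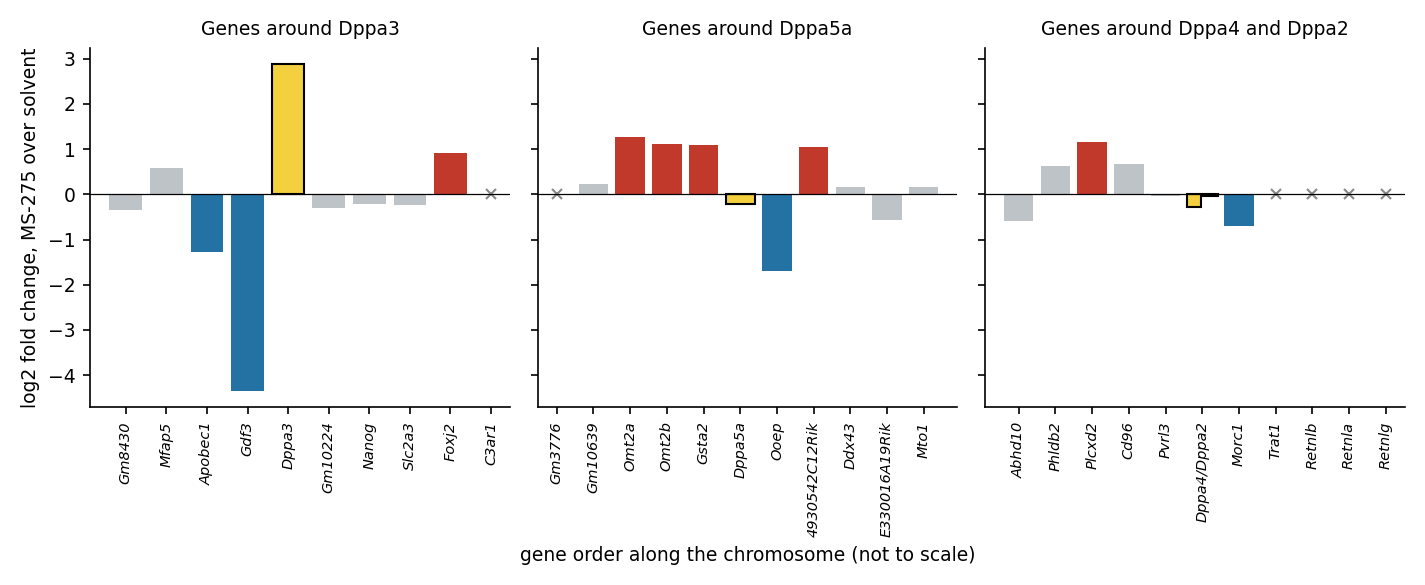
log2 fold change of MS-275 over Solvent (y axis) for up to 5 listed genes on each side of Dppa3, of Dppa5a, and of the pair Dppa4 and Dppa2, in gene order and not to scale. Red bars passed upward and blue bars downward in limma with the replicate block, grey bars did not pass, crosses were not tested, and yellow bars are the Dppa genes, for which no test is given; Dppa3 at 2.88 stands beside Gdf3 at -4.34.

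The genes whose values ran most like those of a member over the 4 libraries were found by the Euclidean distance between centred log2 values among 14740 genes with a mean of at least 0.01. For Dppa3 they were Hist3h2ba, a histone gene (distance 0.368, signal 0.0198, 0.0344, 0.126 and 0.572 in the order Solvent 1 and 2, MS-275 1 and 2), then Sost, a secreted Wnt antagonist (0.372), and 2900060B14Rik (0.415). They share with Dppa3 the large gap between the MS-275 replicates and the higher value with MS-275 within each replicate. For Dppa4 they were Sp1, Tnpo3 and Aes, a transcription factor, a nuclear import receptor and a corepressor, at distances of 0.0390 to 0.0406. For Dppa5a they were Rpl7, Rpl4 and Eef1b2, genes of the ribosome and of translation, at distances of 0.210 to 0.260. Rpl7, for instance, had 0.158 and 2.74 with solvent and 0.127 and 1.99 with MS-275, the same split by replicate as Dppa5a.

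Related gene lists give the setting of these values. In limma without a block 0 genes of any list passed, while before adjustment 28 of their 92 tested genes had a positive and 16 a negative difference at p under 0.05, so calls are those with the replicate block and are read against the 21% higher and 6.46% lower of all genes. Of 25 other pluripotency genes, 0 were called higher and 15 lower, with a median log2 difference of -1.19 against 0.20 for all genes tested. Their median was -0.50 within replicate 1, -1.56 within replicate 2 and -0.79 on distinct positions with the block. The choice of the Dppa genes already used this fall, so it is no independent result. Gdf3, Lefty2 and Lefty1, ligands and antagonists of Nodal-type signalling, fell most (-4.34, -3.20 and -3.15, limma adjusted p with the block from 1.7e-06 to 5.2e-06). Dppa2, Dppa4 and Dppa5a, at -0.03 to -0.28, lay closer to 0 than the median of these genes. So did other genes of the list that were not called, among them Fbxo15 (-0.04), Nanog (-0.23), Klf2 (-0.28) and Sox2 (-0.30).

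Of 13 tested 2-cell-like genes, the group that Dppa2 and Dppa4 are known to act on, 12 were called higher and 0 lower, with a median of 1.84. Among the 12, 4933403O03Rik passed the filter on low values only through the MS-275 libraries. Dub1a and Dub1, deubiquitinase genes, and Zscan4d, a telomere-associated zinc finger gene, rose most (2.80, 2.51 and 2.51, limma adjusted p with the block from 4.8e-06 to 2.2e-05). Zscan4d went from 0.0415 and 0.0394 with solvent to 0.178 and 0.359 with MS-275. Whether Dppa2 or Dppa4 took part in this rise was not tested. The list holds several Zscan4 genes and both Dub1 and Dub1a, families of related genes whose shared windows were not counted. Their calls are therefore not separate observations.

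Of the list of KH-domain and maternal complex genes 5 were tested, 3 were called higher and 1 lower, and the median was 1.04. Ooep is the tested gene of this list that shares the KH domain and the neighbourhood of Dppa5a, and it was the one that fell. Tle6 and Padi6, both of the oocyte complex, rose (2.12 and 1.47, limma adjusted p with the block of 2.1e-05 and 0.00222), and neither is a KH-domain gene. Of 19 tested germ cell genes, 6 were called higher and 4 lower, with a median of -0.03. The balance turned to 3 higher and 8 lower after median-ratio scaling with the block, and was 7 and 7 on distinct positions with the block. Tex101 and Stra8, genes of the testis and of meiotic entry, rose (2.43 and 1.69), and Prdm1, a regulator of germ cell specification, fell by 1.72, with limma adjusted p with the block from 2.9e-05 to 0.000334.

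The DNA methylation genes, among which Dppa3 has its known partners, were mixed, with 3 of 10 called higher, 2 lower and a median of 0.22. After median-ratio scaling with the block 2 were called higher and 3 lower. On the unscaled signal the median ranged from 0.034 without MS-275 replicate 2 to 0.40 without MS-275 replicate 1. Dnmt3a, a de novo methyltransferase, rose from 0.328 and 0.379 to 0.612 and 1.22 (limma with the block, adjusted p of 0.00255). Tet1 and Tet2, which oxidise methylcytosine, fell by 2.47 and 1.26 (limma with the block, adjusted p of 1.7e-05 and 0.000664). Uhrf1, to which Dppa3 binds, went from 0.481 and 1.62 to 0.433 and 0.930, overlapped between the groups and did not pass (limma, adjusted p of 0.862 without and 0.242 with the block). Dnmt1 had a log2 difference of -0.18 and did not pass either.

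**Figure D5:**
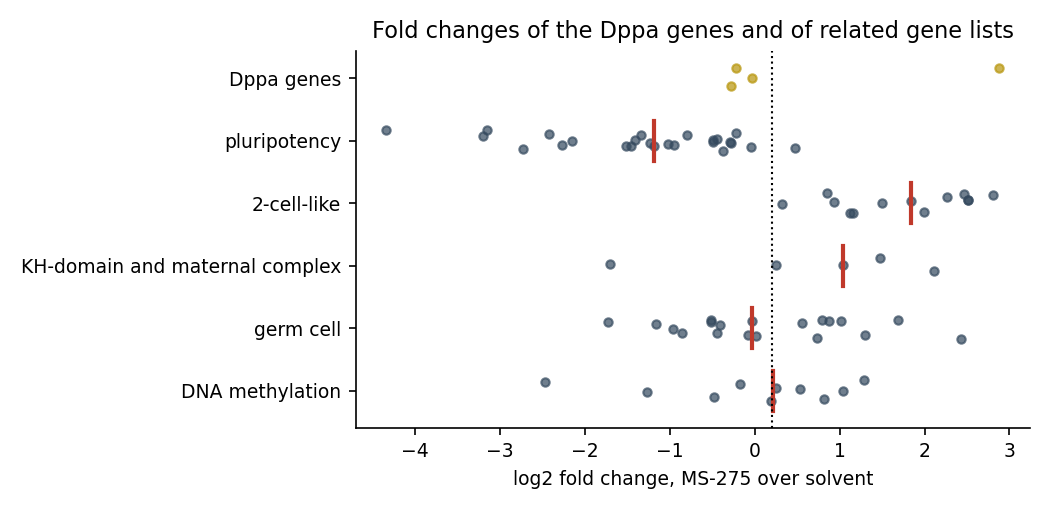
log2 fold change of MS-275 over Solvent (x axis) for the 4 tested Dppa genes and for each tested gene of 5 related lists. Red bars mark the median of a list and the dotted line the median of all genes tested (0.20); the Dppa genes lie at 2.88 and between -0.28 and -0.03, and the pluripotency median lies at -1.19.

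Markers of other cells moved with MS-275 as well. The feeder fibroblast markers had a summed signal of 0.255 to 0.265 with solvent and 0.480 to 0.590 with MS-275, and 4 of 7 were called higher, led by Col1a1 (2.41), Col1a2 (1.06) and Thy1 (0.91), with 0 called lower. Dcn (-0.72) and Col3a1 (-0.52) of the same list had negative differences, and 3 were called higher and 1 lower after median-ratio scaling or on distinct positions, both with the block. Trophectoderm markers summed to 0.0132 to 0.0279 and 0.0558 to 0.0803, with 4 of 5 higher, led by Elf5, Krt8 and Cdx2. Of these, Elf5 and Cdx2 passed the filter on low values only through the MS-275 libraries. Primitive endoderm markers summed to 0.0152 to 0.0524 and 0.0420 to 0.105, with 2 of 4 higher (Sox17 and Pdgfra). Of the primed epiblast markers, T and Pou3f1 rose and Otx2 fell, and the sums of 0.331 to 0.400 and 0.298 to 0.369 overlapped. No marker was at 0 in all 4 libraries. Their part in the Dppa values was not tested, and in bulk RNA fewer cells of a type and less RNA per cell cannot be told apart.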

How the data were processed

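RNA-seq of TBV2 ESC was analysed in 4 libraries, 2 with solvent and 2 with 5 µM MS-275 for 24 h, grouped by their titles (the library called a duplicate is replicate 2). The authors mapped reads to mm9 and deposited a normalized expression signal from Genomatix for 28250 genes. The formula and the handling of repeats are not given in the sources used here, and the vehicle was not resolved. Tables of ratios by the authors were not used.

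The Dppa genes and the gene lists were chosen with earlier results of these data known. Genes that reached a signal of 0.001 in 2 or more libraries (20336) were fitted with limma 3.58.1 in R 4.3.3 (lmFit, eBayes with a trend) on log2(signal + 0.005), with Benjamini-Hochberg adjustment and a threshold of 0.05. Some genes passed this filter through the MS-275 libraries alone, which favours a call of higher for them. In the headers of the authors' shorter tables, replicate 1 carries the word old in both groups, so a fit with the replicate number as a block is given beside it; same-numbered libraries deviated together (correlation of 0.764 over genes). Tested on simulated data with a known shift put into a set of genes, the steps returned the shift.

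From the deposited alignments, exon counts and distinct positions were taken on GENCODE M1 (mm9). Distinct positions were fitted with limma-voom for the 16905 genes that reached 10 positions in 2 or more libraries. Windows of 35 bases were compared with the whole of mm9 with up to 1 mismatch. Python 3.11.15 with numpy 2.4.6, pandas 2.3.3, pysam 0.24.0 and matplotlib 3.10.9 was used. Promoter and protein sequences were not analysed here, and 1 neighbour that counts among the calls is not reported here.

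Named genes were the Dppa genes, the neighbours called with or without the block and the nearest on each side, the 3 list genes with the largest change among those called with the block, and the 3 genes nearest in pattern to Dppa3, Dppa4 and Dppa5a. Uhrf1, Dnmt1, Nanog, Slc2a3, Dcn, Col3a1, the differences of Fbxo15, Klf2 and Sox2, and the copies were added after their values were seen. Alternatives were pseudocounts of 0.001 and 0.02, no filter or a mean of at least 0.01, quantile and median-ratio scaling (also with the block, added later), no trend, the alignments, and each library left out. The ratio of the signal to the alignments was taken over genes with at least 100 alignments in both libraries of a group (9270 with solvent, 10054 with MS-275).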

Additional observations from a re-analysis of the deposited data

How the results depend on the processing

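The direction of Dppa3 was the same under every alternative run, from 1.67 to 4.09 when 1 library was left out (lowest without MS-275 replicate 2, highest without MS-275 replicate 1). Dppa4 then ranged from -0.51 to -0.06, Dppa2 from -0.15 to 0.08 and Dppa5a from -2.33 to 1.88, and such values carry the offset between unbalanced replicates. Median-ratio scaling, which moves the median of all genes from 0.20 to -0.01, moved Dppa2 to -0.31, with or without the block. Distinct positions gave Dppa5a 0.06, against -0.22 from the signal.

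The replicate block decides the calls over all genes. Without it 1 gene passed upward and 0 downward (2974 and 564 at p under 0.05 before adjustment), with it 4277 and 1314. Upward calls without the block were 0 with a pseudocount of 0.001 or 0.02, no filter, quantile or median-ratio scaling or no trend, and 466 (65 downward) at a mean of at least 0.01. With the block they were 2936 upward and 2961 downward after quantile normalization, and 3376 and 2861 after median-ratio scaling. Limma-voom called 2572 and 780, or 4829 and 2396 with the block. Of the neighbours, 7 and 4 passed with the block (0 without it). Also with the block, 5 and 7 passed after quantile normalization and 6 and 6 after median-ratio scaling. In limma-voom, which tested fewer of the neighbours, 3 and 3 passed, or 4 and 6 with the block. At a mean of at least 0.01, 1 passed downward.

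Medians of the lists also moved. A pseudocount of 0.02 gave 1.15 for the 2-cell-like and 0.75 for the KH-domain and maternal complex list. The median of that last list was 0.77 with median-ratio scaling, 0.73 with distinct positions, 0.86 within replicate 1 and 0.79 to 1.29 with 1 library left out. The germ cell median was -0.30 with median-ratio scaling, 0.031 within replicate 1, 0.14 without Solvent replicate 1, 0.23 without MS-275 replicate 2, and -0.19 to 0.23 over the left-out libraries. The DNA methylation median was -0.019 with median-ratio scaling, with or without the block, and -0.0061 within replicate 1. The pluripotency median stayed negative, from -1.65 to -0.98 with 1 library left out. The cause was not tested. With 2 libraries per group, leaving 1 out gives a value and no test. The depth behind a signal cannot be read from it, and Dppa3 rests on 13 to 652 exon alignments.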
